A study of Mus musculus with 8 samples.

Results

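The genes described here encode the calcium arm of signalling downstream of G protein-coupled and Wnt receptors: 4 isoforms of calcium/calmodulin-dependent protein kinase II (CaMKII; Camk2a, Camk2b, Camk2d and Camk2g), 4 isoforms of phospholipase C beta (Plcb1, Plcb2, Plcb3 and Plcb4) and 2 conventional isoforms of protein kinase C (PKC; Prkca and Prkcb). They were taken by name as the family members of interest, and all 10 were found among the 16536 genes of the count table. Phospholipase C beta is activated by G proteins of the Gq class and cleaves a membrane phosphoinositide into inositol trisphosphate, which releases calcium from the endoplasmic reticulum, and diacylglycerol. Calcium bound to calmodulin activates CaMKII, while calcium together with diacylglycerol activates conventional PKC. In the growth plate, the cartilage that lengthens long bones, this route is driven by receptors that include the parathyroid hormone receptor and by noncanonical Wnt ligands.

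RNA-seq was performed on cells sorted from the femoral growth plates of Pthrp-mCherry mice, 1 library per mouse, with both femurs of a mouse combined. All mice carried the reporter, in which mCherry marks cells that express parathyroid hormone-related protein (gene Pthlh), and all cells were gated as mCherry+CD73+ (CD73 is encoded by Nt5e). The 4 SAG mice received SAG, an agonist of the hedgehog transducer Smoothened, at 25 µg/g, and the 4 DMSO mice received the vehicle. Injections were intraperitoneal and daily, from postnatal day 30 to 36 (31 to 37 in another description of the same experiment), and the mice were killed on day 38. Mice of both sexes were used in the study, and the labels do not give the sex of a library. The labels name the tissue as metaphyseal growth plate.

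Library totals ran from 24971992 to 46593090 counts, and levels are given in CPM, the counts of a gene per mega-count of its library, with totals adjusted by TMM. A gene with 3 counts is thus at 0.0644 CPM in the deepest library and 0.120 CPM in the shallowest, before that adjustment. The library DMSO 4 stood apart: it had the lowest total and the fewest genes with a count (14416), and its Spearman correlation with the other DMSO libraries was 0.834 to 0.868, against 0.926 to 0.938 among those 3. Values without it are given where it changed a call. Cartilage RNA was abundant, with the cartilage collagen Col2a1 at 53690 ± 15450 CPM in DMSO and 26430 ± 10030 CPM in SAG (SD, n = 4). Cells of other types were also present, and their markers moved with treatment. The 14 neutrophil markers summed to 5070 to 15100 CPM in DMSO and 28900 to 46000 CPM in SAG, and 11 of the 14 were called higher. The 10 B-lineage markers summed to 93.3 to 436 CPM in DMSO and 24.6 to 43.2 CPM in SAG, with 4 of the 9 tested called lower, and the 15 chondrocyte markers summed to 50300 to 119000 CPM and 20700 to 57500 CPM, with all 15 estimates below 0 and 0 called by edgeR (14 lower by unadjusted p under 0.05, 7 lower with DESeq2 and 10 with limma voom). All chondrocyte and neutrophil markers had counts in every library, and 2 of the B-lineage markers were at 0 in some. In SAG 2 the neutrophil markers summed to more (46000 CPM) than the chondrocyte markers (20700 CPM). Among the DMSO libraries, DMSO 4 had the lowest chondrocyte sum (50300 CPM) and the highest neutrophil (15100 CPM) and B-lineage (436 CPM) sums. In libraries of this kind, fewer cells of a type and less RNA per cell cannot be told apart.

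The sequences before 3 of the genes are shown. Of these, 2, Plcb1 and Plcb2, belong to the same family and lie on the same chromosome but differed in their estimates and in the base composition before their starts. Camk2d is shown because it was the only isoform called by edgeR. They are RefSeq promoter sequences (build GRCm38.p6), read 5′ to 3′ on the strand of the gene. Capitals mark CpG dinucleotides and, in Plcb2, also the ETS-type motif AGGAAGT. The Plcb2 stretch is the 250 bases before the start (chr2:118728439-118728688, minus strand), the Plcb1 stretch is the 153 of those 250 bases that lie outside its annotated exons (chr2:134785914-134786066, plus strand), and the Camk2d stretch is the 250 bases before the RefSeq start (chr3:126596701-126596950, plus strand), which lie inside the GENCODE span of the gene but outside its exons.
Plcb2: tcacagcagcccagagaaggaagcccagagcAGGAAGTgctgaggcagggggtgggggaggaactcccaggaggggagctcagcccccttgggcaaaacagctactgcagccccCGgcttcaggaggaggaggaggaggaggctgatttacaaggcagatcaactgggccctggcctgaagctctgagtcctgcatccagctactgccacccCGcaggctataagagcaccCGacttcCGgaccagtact
Plcb1: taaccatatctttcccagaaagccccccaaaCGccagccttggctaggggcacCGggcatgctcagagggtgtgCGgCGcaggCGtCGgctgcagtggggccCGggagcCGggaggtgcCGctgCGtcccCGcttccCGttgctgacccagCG
Camk2d: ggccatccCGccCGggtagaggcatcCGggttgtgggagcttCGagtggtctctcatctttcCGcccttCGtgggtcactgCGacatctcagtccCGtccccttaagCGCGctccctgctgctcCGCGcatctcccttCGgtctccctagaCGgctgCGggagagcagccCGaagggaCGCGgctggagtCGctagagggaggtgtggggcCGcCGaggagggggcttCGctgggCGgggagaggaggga
Over the full 250 bases, Plcb2 had 4 CpG dinucleotides, Plcb1 had 22 and Camk2d had 23, against a median of 6 over 32851 RefSeq promoters. Of these promoters 44.4% had as few CpG dinucleotides as Plcb2, and 14.8% and 13.3% had as many as Plcb1 and Camk2d. Of the 10 genes 8 matched an entry. Plcb4 had 2 starts, with 42 and 3 CpG dinucleotides, while Camk2b had 44, Prkca 39, Plcb3 20 and Prkcb 17. Searching both strands, the ETS-type letters AGGAAGT were found before Plcb2 alone among the 9 starts of these genes, and in 7.69% of all promoters. The letters GACCACCCA (GLI-type, 0.225% of promoters) and CTTTGAT (TCF/LEF-type, 3.21%) were in none of the 9 windows.

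Within the CaMKII and phospholipase C beta families, the estimates for the major isoforms went in opposite directions between SAG and DMSO. Camk2d fell to 0.507-fold of its DMSO level, and this was the only isoform of the 10 called by edgeR's quasi-likelihood test (Benjamini-Hochberg adjusted p under 0.05 over 15421 tested genes). Camk2g was estimated higher, Plcb1 lower, and Plcb2 and Prkcb higher, and none of these 4 passed that threshold. All 10 genes passed the filter on low counts, and their estimates were above 0 in 5 and below 0 in 5, with a median log2 fold change of 0.21 beside -0.08 over all genes tested. The call of 1 lower and 0 higher genes stands beside 0.266% of all genes called lower and 2.62% called higher. The SAG libraries lay wholly above DMSO for 2 of the 10 genes and wholly below for 1, against 7.9% and 3.84% of all genes. At an unadjusted p under 0.05, 3 of the 10 were higher and 2 lower, beside 9.58% and 6.5% of all genes. The study names Camk2d and Plcb1 in a Wnt gene list drawn from these same libraries, so their direction is not independent evidence.

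**Figure D1:**
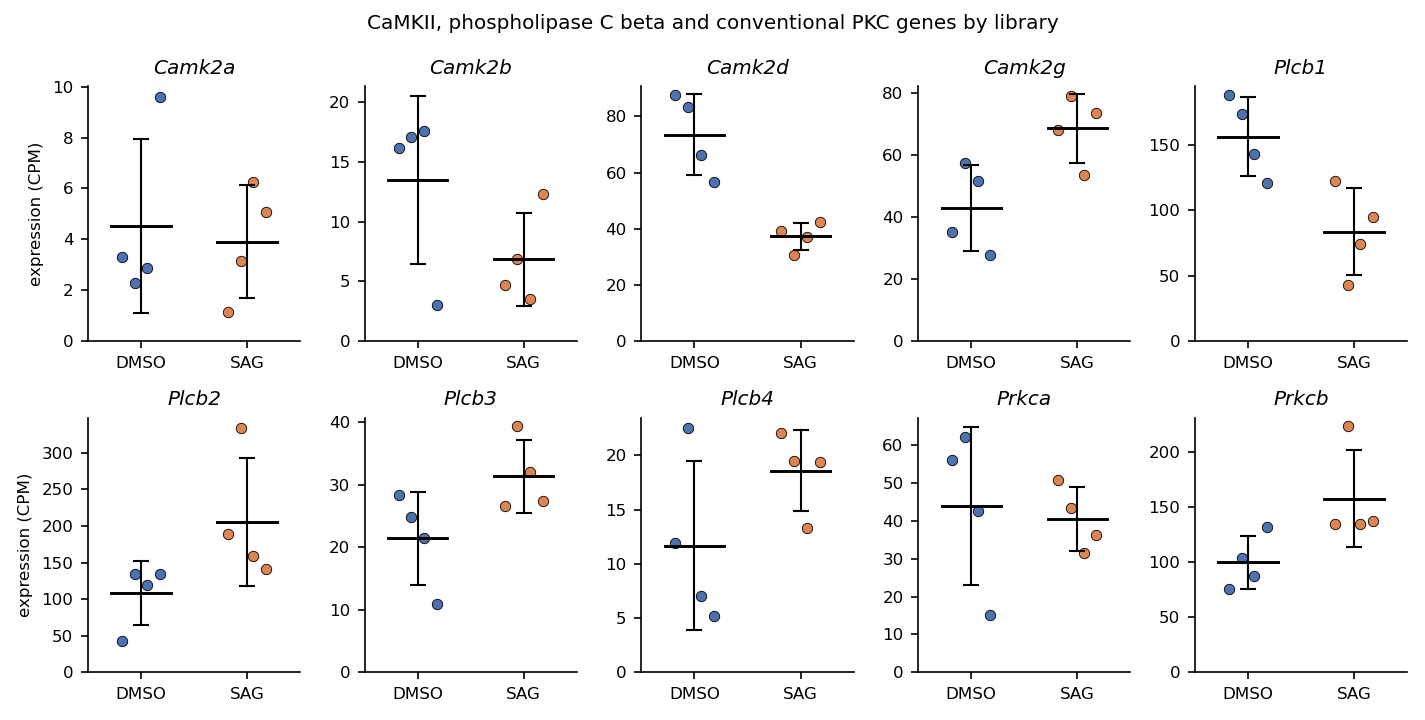
Expression of the 10 genes in CPM (y axis from 0) in each DMSO and SAG library, with 1 point per library, a horizontal line at the mean and a bar of ± 1 SD (n = 4). The 4 SAG values of Camk2d lie below all 4 DMSO values, those of Plcb2 and Prkcb lie above them, and the groups overlap for the other 7 genes.

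CaMKII holoenzymes are assembled from subunits of the 4 genes, of which the alpha and beta forms are best known from neurons and the delta and gamma forms are found in most tissues. Camk2d (chr3:126596302-126846326, plus strand) was at 87.7, 83.2, 66.3 and 56.8 CPM in DMSO 1 to 4 and at 39.1, 30.6, 37.1 and 42.3 CPM in SAG 1 to 4. Every SAG library was below every DMSO library. The means were 73.5 ± 14.5 and 37.3 ± 4.91 CPM (SD, n = 4), a log2 fold change of -0.98 (SE 0.22, edgeR adjusted p = 0.0363). The estimate kept its direction when any library was left out (-1.06 to -0.88), but of the 8 fits of this kind the one without DMSO 4 alone stayed past the threshold (adjusted p = 0.00804), and the adjusted p rose to as much as 0.123 in the others. DESeq2 and limma voom gave adjusted p-values of 0.000687 and 0.00562.

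Camk2g (chr14:20734875-20794088, minus strand) was at 35.3, 57.5, 51.6 and 27.7 CPM in DMSO 1 to 4 and at 68.2, 79.2, 53.5 and 73.7 CPM in SAG 1 to 4. SAG 3 fell within the DMSO range, and the other SAG libraries were above it. The log2 fold change was 0.67 (SE 0.26, edgeR adjusted p = 0.227), with means of 43.0 ± 13.9 and 68.6 ± 11.1 CPM.

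The forms best known from neurons were low. Camk2b (chr11:5969644-6066362, minus strand) was at 16.2, 17.1, 17.6 and 3.00 CPM in DMSO 1 to 4 and at 4.71, 6.84, 3.54 and 12.3 CPM in SAG 1 to 4. The DMSO 4 value lay below all 4 SAG values, whereas the other DMSO libraries lay above them (log2 fold change -0.98, SE 0.60, edgeR adjusted p = 0.484, and -1.28 with adjusted p = 0.101 without DMSO 4). Camk2a (chr18:60925618-60988152, plus strand) rested on 40 to 253 counts per library. It was at 3.31, 2.28, 2.87 and 9.60 CPM in DMSO and at 1.15, 3.16, 6.25 and 5.06 CPM in SAG, with overlapping groups and a log2 fold change of -0.21 (SE 0.76, edgeR adjusted p = 0.939) whose sign turned without DMSO 4 (0.50), without SAG 1 (0.099), under limma voom (0.37) and with the B-lineage marker score as covariate (1.54). Of 6 neuronal marker genes, 2 were in the table, and these summed to at most 4.34 CPM in any library.

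**Figure D2:**
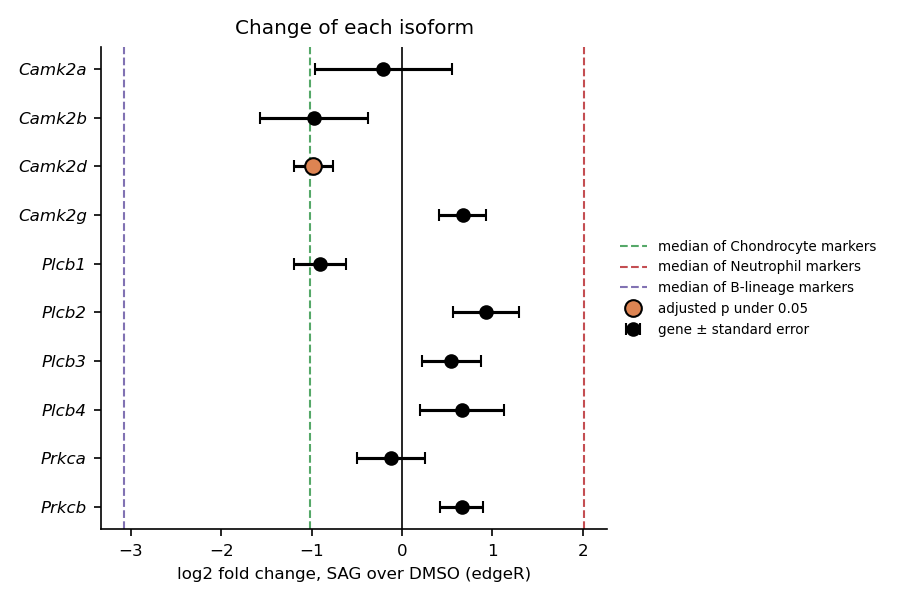
Log2 fold change of SAG over DMSO from edgeR (x axis) for each gene, with bars of ± 1 standard error, and dashed lines at the median log2 fold change of the chondrocyte (-1.02), neutrophil (2.02) and B-lineage (-3.07) markers. The filled orange point is Camk2d, the gene with an adjusted p under 0.05. Camk2b, Camk2d and Plcb1 lie near the chondrocyte line.

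Phospholipase C beta isoforms differ in how they respond to G protein subunits and in where they are made, with the beta-2 form known chiefly from blood cells. Plcb1 (chr2:134786067-135475258, plus strand) was at 188.1, 173.8, 143.5 and 120.9 CPM in DMSO 1 to 4 and at 122.7, 43.2, 74.1 and 94.8 CPM in SAG 1 to 4. The groups overlapped only through SAG 1 and DMSO 4. The means were 156.6 ± 30.2 and 83.7 ± 33.5 CPM, and the log2 fold change of -0.90 (SE 0.29) missed the edgeR threshold (adjusted p = 0.132). It passed with DESeq2 (adjusted p = 0.0359) and with limma voom (0.0215), so that these tools called 2 of the 10 genes lower and 0 higher. Over all genes, DESeq2 called 2.53% lower and 5.17% higher, and limma voom 2.58% and 6.45%.

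Plcb2 (chr2:118707517-118728438, minus strand) went the other way, at 43.1, 134.5, 119.5 and 134.2 CPM in DMSO 1 to 4 and at 189.7, 333.7, 158.8 and 141.7 CPM in SAG 1 to 4. All SAG libraries were above all DMSO libraries, although SAG 4 exceeded the highest DMSO library by little. The means were 107.8 ± 43.7 and 206.0 ± 87.4 CPM, a log2 fold change of 0.93 (SE 0.37, edgeR adjusted p = 0.23).

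The beta-3 and beta-4 genes were lower in level and their groups overlapped. Plcb3 (chr19:6952325-6976470, minus strand), at 28.4, 24.8, 21.4 and 11.0 CPM in DMSO and 26.5, 39.3, 32.1 and 27.4 CPM in SAG, had a log2 fold change of 0.55 (SE 0.32, edgeR adjusted p = 0.463). Its exons overlap those of Ppp1r14b on the opposite strand, and since the strand setting of the counting is not given in the sources used here, reads of the overlap may be shared. Plcb4 (chr2:135659011-136014593, plus strand), which follows Plcb1 on the chromosome, was at 12.0, 22.6, 7.0 and 5.2 CPM in DMSO and at 22.1, 19.5, 13.3 and 19.4 CPM in SAG (log2 fold change 0.67, SE 0.46, edgeR adjusted p = 0.548). The neighbours Plcb1 and Plcb4 thus had estimates of opposite sign.

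Conventional PKC is represented by the alpha form, found in most tissues, and the beta form, prominent in B cells and other leukocytes. Prkcb (chr7:122288751-122634402, plus strand) was at 75.9, 103.3, 87.8 and 131.7 CPM in DMSO 1 to 4 and at 134.5, 223.7, 134.5 and 137.3 CPM in SAG 1 to 4. The groups did not overlap, and 3 of the SAG libraries were close to DMSO 4, the highest of its group. The log2 fold change was 0.66 (SE 0.24, edgeR adjusted p = 0.183, means 99.7 ± 24.1 and 157.5 ± 44.1 CPM), and without DMSO 4 it was 0.85 with an adjusted p of 0.0376. Prkca (chr11:107933387-108343928, minus strand) was at 55.9, 61.9, 42.6 and 15.2 CPM in DMSO and at 50.6, 43.2, 31.5 and 36.3 CPM in SAG. The SAG values lay inside the DMSO range (log2 fold change -0.12, SE 0.38, edgeR adjusted p = 0.925), and the sign turned without DMSO 1 or DMSO 2.

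Because a ratio of 2 isoforms within a library does not depend on the library's scaling, the balance of the 2 leading isoforms was compared directly. Such a ratio still depends on the mix of cells in a library, and cell type markers moved with treatment. Whether the balance changed within any cell type was not tested. The 3 pairs were chosen with earlier results of these data known, so their p-values are not independent evidence of a shift. The log2 ratio of Camk2d to Camk2g counts was 1.31, 0.53, 0.36 and 1.03 in DMSO 1 to 4 and -0.80, -1.37, -0.53 and -0.80 in SAG 1 to 4. Camk2d had the higher count in every DMSO library and Camk2g in every SAG library, and the ratio was 3.22-fold lower in SAG (difference of log2 ratios -1.69, two-sided exact permutation test over 70 relabellings, p = 0.0286, the smallest this design allows, adjusted p = 0.0429 over 3 pairs). The log2 ratio of Plcb1 to Plcb2 was 2.13, 0.37, 0.26 and -0.15 in DMSO and -0.63, -2.95, -1.10 and -0.58 in SAG. Plcb1 counts exceeded Plcb2 counts in 3 of 4 DMSO libraries and in 0 of 4 SAG libraries, and the ratio was 3.91-fold lower in SAG (difference -1.97, exact permutation p = 0.0286, adjusted p = 0.0429). For Prkca to Prkcb the ratios were -0.44, -0.74, -1.04 and -3.12 in DMSO and -1.41, -2.37, -2.09 and -1.92 in SAG. Prkcb led in all 8 libraries, and the difference of -0.61 was within the spread of the DMSO libraries (exact permutation p = 0.4, adjusted p = 0.4). That difference rested on single libraries: without DMSO 4 it was -1.21, with no overlap between the groups and exact permutation p = 0.0571, the smallest then possible, and without DMSO 1 it was -0.32.

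**Figure D3:**
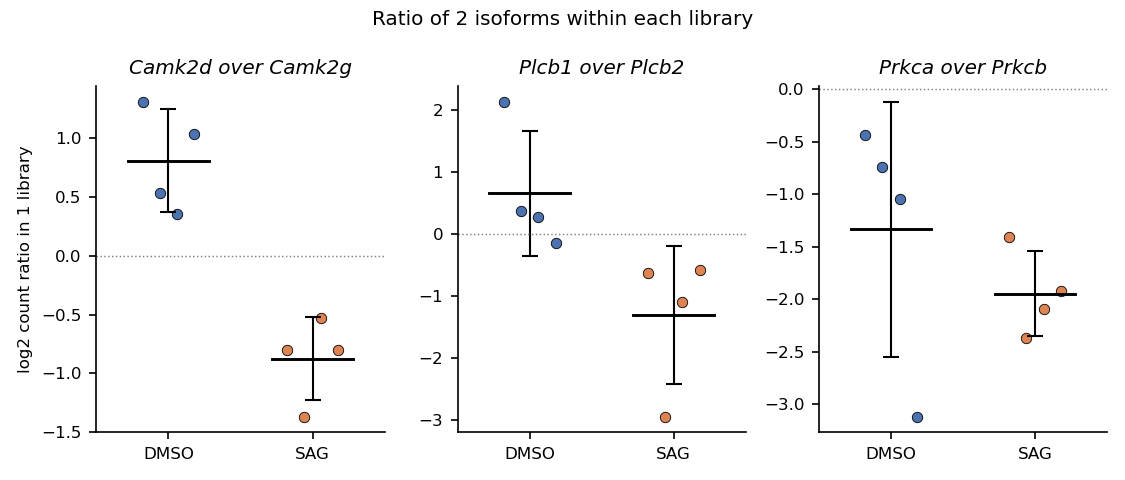
Log2 ratio of the counts of 2 isoforms within each library (y axis, a separate scale in each panel), with 1 point per library, the mean and ± 1 SD (n = 4), and a dotted line where both counts are equal. SAG lies below DMSO without overlap for Camk2d over Camk2g and for Plcb1 over Plcb2, and within the DMSO range for Prkca over Prkcb.

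Dividing counts by transcript length gave each isoform's share of its family, as a description. Like the ratios, these shares are those of whole libraries of mixed cells. By merged exon length, Camk2g held 54.9% ± 6.65 of CaMKII in DMSO and 78.4% ± 4.51 in SAG (SD, n = 4), while Camk2d held 27.6% ± 5.08 and 12.3% ± 2.36. By the longest transcript, the Camk2d share was 46.3% ± 6.48 and 24.6% ± 4.19, and the Camk2g share 39.5% ± 6.39 and 66.7% ± 5.17. Camk2g led in all 4 DMSO libraries by merged exons, whereas by the longest transcript Camk2d led in DMSO 1 and DMSO 4 and Camk2g in DMSO 2 and DMSO 3. The isoform with the higher DMSO mean thus depended on the length used, because Camk2d has 22493 bases of merged exons and a longest transcript of 5524 bases, whereas the groups did not overlap for either isoform by either length. Plcb1 held 41.3% ± 11.7 of its family in DMSO and 18% ± 8.28 in SAG by merged exons, again without overlap. Plcb2 held 46.0% ± 16.4 and 67.1% ± 9.69, with overlap between the groups (DMSO up to 60.9%, SAG from 59.5%). Prkcb made up 72.4% ± 13 and 81.7% ± 4.31 of the conventional PKC pair. Single libraries moved these differences: that of Prkcb, 9.28 percentage points, was 15.5 without DMSO 4 and 5.63 without DMSO 1, and that of Plcb2, 21.1 percentage points, was 13.4 without DMSO 1.

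**Figure D4:**
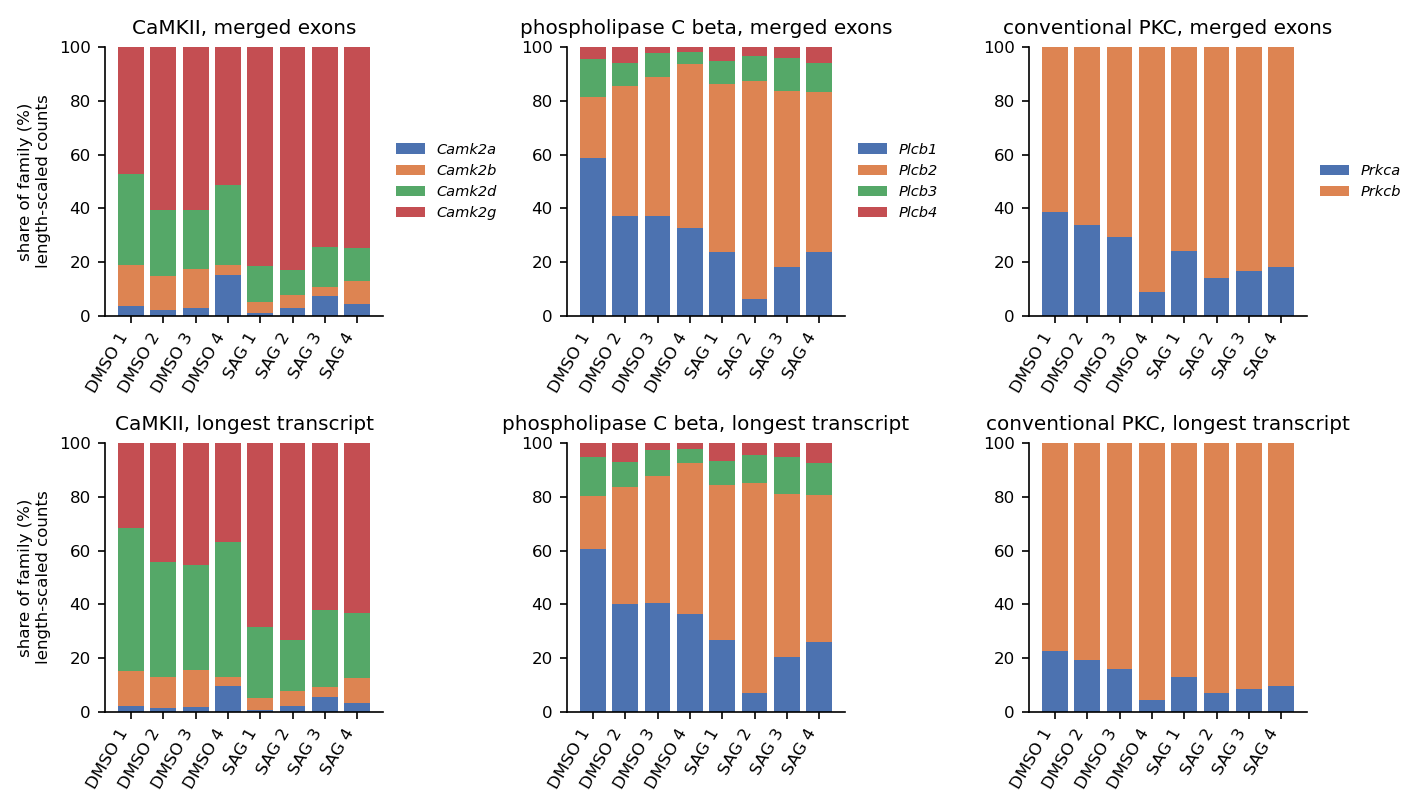
Share of each isoform in the length-scaled counts of its family (y axis, percent) in each library, by merged exon length (top row) and by the longest transcript (bottom row). The Camk2g segment is larger in all SAG libraries than in any DMSO library, and the Plcb1 segment is smaller.

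Levels were also summed over each family. CaMKII as a whole was at 29.1 ± 6.23 CPM per kilobase of longest transcript in DMSO and 27.7 ± 3.53 in SAG, with overlapping groups. By merged exon length the mean of Camk2g rose from 6.72 to 10.7. Those of Camk2d (3.27 to 1.66), Camk2b (1.48 to 0.751) and Camk2a (0.605 to 0.523) fell by less in sum. The sign of the CaMKII difference thus depended on the length used. The phospholipase C beta sum was 49.6 ± 7.38 and 62.1 ± 15.4 CPM per kilobase, also overlapping. The conventional PKC sum was 35.2 ± 5.64 and 52.1 ± 13.5 CPM per kilobase, and every SAG library (44.2 to 72.4) was above every DMSO library (29.5 to 41.4). On the same scale, the order of mean levels in DMSO was Prkcb (29.9), Plcb1 (21.7), Plcb2 (21), Camk2d (13.3), Camk2g (11.6), Prkca (5.22), Plcb3 (4.7), Camk2b (3.27), Plcb4 (2.24) and Camk2a (0.909). Among neighbours in that order, the ranges over libraries were separate for Camk2g and Prkca and overlapped for the others. In SAG the order was Prkcb (47.3), Plcb2 (40.0), Camk2g (18.5), Plcb1 (11.6), Plcb3 (6.87), Camk2d (6.75), Prkca (4.81), Plcb4 (3.56), Camk2b (1.66) and Camk2a (0.786), and of the neighbours Plcb2 and Camk2g were separate. By merged exon length, Plcb2 was first in both groups (16.3 and 31.2 CPM per kilobase), so the top place depended on the length used.

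Since cell type markers moved with treatment, each gene was also expressed relative to them, as the log2 CPM of the gene minus the mean log2 CPM of the list. The mean of the chondrocyte list was 10.6 ± 0.60 in DMSO and 9.46 ± 0.66 in SAG, a difference of -1.09 with overlapping groups. Relative to it, Camk2d was at -4.37 ± 0.33 in DMSO and -4.25 ± 0.47 in SAG, and Plcb1 at -3.28 ± 0.33 and -3.17 ± 0.26. The groups overlapped for both genes, and the SAG mean was the higher one, by 0.12 for Camk2d and 0.11 for Plcb1. On the same measure Camk2g was 1.81 higher in SAG than in DMSO on the log2 scale, Plcb3 1.70, Plcb4 1.96 and Prkca 1.13, each without overlap. Plcb2 (2.07) and Prkcb (1.74) were higher with overlap. The list's own difference of -1.09 enters each of these values and fixed their sign, since no log2 fold change of the 10 genes was below -0.98. All 10 SAG means were thus the higher ones, also that of Prkca, whose own log2 fold change was -0.12.

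Relative to the neutrophil list, whose mean log2 CPM was 8.17 ± 0.80 in DMSO and 10.2 ± 0.24 in SAG, all 10 genes were lower in SAG. That sign was fixed by the list, which rose by 2.0, whereas the largest log2 fold change of the 10 genes was 0.93 (Plcb2). The smallest difference relative to this list was that of Plcb2 (-1.55 ± 0.89 in DMSO and -2.57 ± 0.44 in SAG, overlapping). Those of Camk2d (-1.99 ± 1.09 and -4.96 ± 0.37) and Plcb1 (-0.90 ± 1.08 and -3.88 ± 0.80) were among the larger ones. Relative to the B-lineage list (3.90 ± 1.19 and 1.08 ± 0.23), all 10 were higher in SAG. The list's own difference of -2.81 likewise fixed that sign, since it exceeded in size every log2 fold change of the 10 genes. Treatment accounted for 79.1% of the variance of the neutrophil score over the 8 libraries, 78.3% of that of the B-lineage score and 50% of that of the chondrocyte score. With the neutrophil score as a covariate the Camk2d log2 fold change was -0.26 (edgeR adjusted p = 0.782), and with the chondrocyte score it was -0.57 (adjusted p = 0.397). With the B-lineage score it was larger in size, at -1.68 (edgeR adjusted p = 0.0388). The part of treatment and the part of cell content in these values cannot be told apart where both move together.

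**Figure D5:**
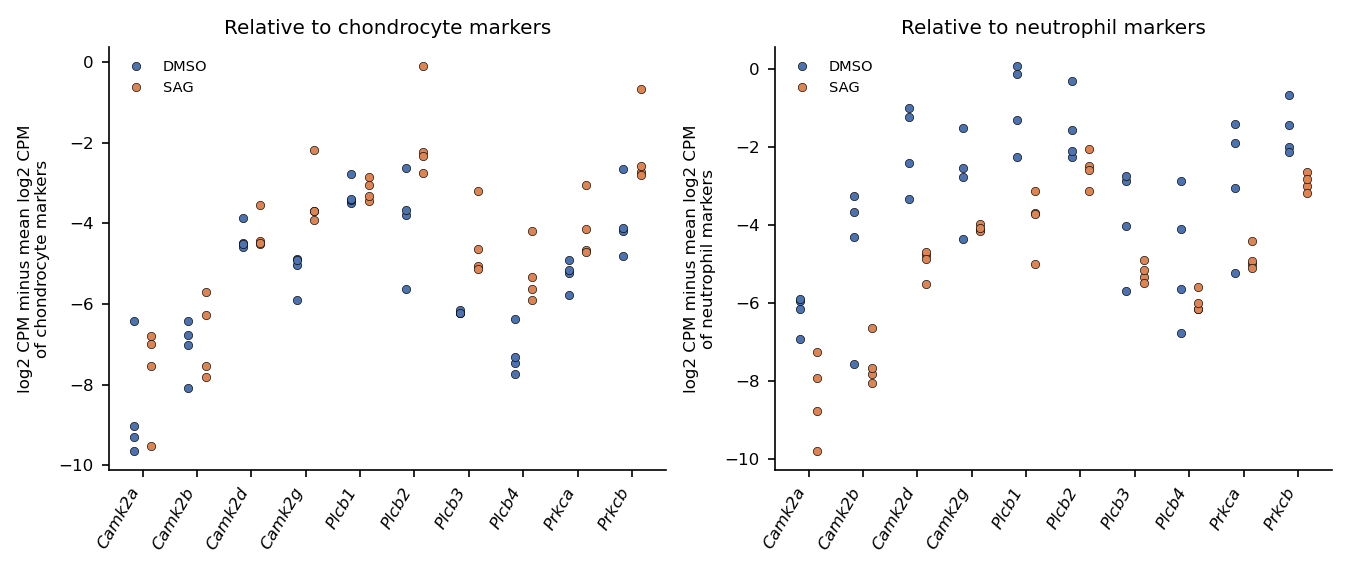
Log2 CPM of each gene minus the mean log2 CPM of the chondrocyte markers (left) or of the neutrophil markers (right) in each library (y axes, log2 differences, 1 point per library). Relative to chondrocyte markers the means of all 10 genes are higher in SAG, a sign fixed by the difference of -1.09 in those markers. The groups are separate for Camk2g, Plcb3, Plcb4 and Prkca and overlap for the others, Camk2d and Plcb1 among them. Relative to neutrophil markers the means of all 10 genes are lower in SAG, a sign fixed by the rise of 2.0 in those markers.

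Other cell types gave 0 calls by edgeR in either direction in the lists for T and NK cells, monocytes and macrophages, erythroid cells, megakaryocytes, osteoblasts, endothelium, neurons and skeletal muscle. Of the 40 genes tested in these lists, 1 was higher and 4 were lower by unadjusted p under 0.05, DESeq2 called 3 lower and limma voom 1 lower, and neither called one higher. Over all genes, 9.58% were higher and 6.5% lower by unadjusted p under 0.05, and DESeq2 and limma voom called 2.53% and 2.58% lower. The summed levels of these lists overlapped between the groups except for skeletal muscle, which was at 15.9 to 35.5 CPM in DMSO and 11.0 to 14.6 CPM in SAG. The monocyte and macrophage markers summed to 473 to 1010 CPM and 350 to 613 CPM. Of the genes behind the sort, Pthlh was at 18.5 ± 3.15 CPM in DMSO and 23.8 ± 4.79 CPM in SAG (edgeR adjusted p = 0.606). Nt5e was at 228 ± 47.8 and 159 ± 12.5 CPM, with all SAG libraries below DMSO and a log2 fold change of -0.51 (edgeR adjusted p = 0.186).

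The rest of the pathway was examined in 10 lists that run from Wnt ligands and receptors to kinase targets. Of 102 listed genes 98 were in the table and 96 were tested, of which 2 were called higher and 0 lower by edgeR, with a median log2 fold change of -0.04. At an unadjusted p under 0.05, 16 were higher and 7 lower, DESeq2 called 7 higher and 7 lower, and limma voom 12 and 7. Over all genes tested, edgeR called 2.62% higher and 0.266% lower. The shares were 9.58% and 6.5% at an unadjusted p under 0.05, 5.17% and 2.53% with DESeq2, and 6.45% and 2.58% with limma voom. These shares also stand beside the counts of each list below. The listed genes called by edgeR were Prkcd, a PKC that needs diacylglycerol but not calcium, and Gnai3, an inhibitory G protein subunit. Prkcd was at 85.2, 105.5, 123.9 and 136.8 CPM in DMSO and at 185.9, 415.3, 207.8 and 300.8 CPM in SAG, without overlap (log2 fold change 1.30, edgeR adjusted p = 0.0267). Most other genes of its list went the other way, with 3 of 10 estimates above 0 and a median of -0.49. In that list 1 gene was higher and 1 lower by unadjusted p under 0.05, and likewise with DESeq2 and with limma voom. Gnai3 was at 118, 132.2, 149.6 and 94.0 CPM in DMSO and 204.7, 237.9, 191.7 and 231.9 CPM in SAG (0.81, adjusted p = 0.0405). The G protein list as a whole summed to 1300 to 1650 CPM in DMSO and 1970 to 2400 CPM in SAG. It had 8 of 11 estimates above 0 and a median of 0.28, beside -0.08 over all genes. By unadjusted p under 0.05, 4 of the 11 were higher and 0 lower (3 and 0 with DESeq2, 3 and 0 with limma voom).

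Upstream, the 14 Wnt and receptor genes had 3 estimates above 0 and a median of -0.61, with 0 called by edgeR and 3 lower by unadjusted p under 0.05 (3 lower with DESeq2, 2 with limma voom). Pth1r, the receptor for parathyroid hormone and its related protein, was at 173 ± 90.4 CPM in DMSO and 69.9 ± 18.9 CPM in SAG (log2 fold change -1.31, edgeR adjusted p = 0.0928), and Vangl2, a core protein of planar cell polarity, at 11.5 ± 6.33 and 4.11 ± 0.247 CPM (adjusted p = 0.145). Among the other phospholipases C, 0 of 8 were called by edgeR, with 2 higher and 1 lower by unadjusted p under 0.05 (1 and 1 with DESeq2, 2 and 1 with limma voom). The gamma forms, which act downstream of tyrosine kinases, had estimates of opposite sign: Plcg2, known chiefly from blood cells, was at 177 ± 47.4 and 331 ± 57.6 CPM (log2 fold change 0.90, edgeR adjusted p = 0.0551), and Plcg1 at 121 ± 30.6 and 64.2 ± 23.2 CPM (-0.92, adjusted p = 0.115).

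At the level of calcium itself, 0 of 16 release, entry and pump genes were called by edgeR, with 8 estimates above 0 and with 3 higher and 1 lower by unadjusted p under 0.05 (1 and 1 with DESeq2, 2 and 2 with limma voom). Itpr1, an inositol trisphosphate receptor of the endoplasmic reticulum, was at 118 ± 20.2 CPM in DMSO and 74.1 ± 11.8 CPM in SAG, without overlap (log2 fold change -0.67, edgeR adjusted p = 0.0976). Atp2a3, a calcium pump of the same membrane known from blood cells, was at 90.4 ± 47.8 and 218 ± 73.1 CPM (1.27, adjusted p = 0.0905). The calmodulin gene Calm3 was at 257 ± 10.1 and 310 ± 29.8 CPM, and 0 of 5 genes for calmodulin and CaMKII inhibitors and 0 of 6 other calmodulin kinases were called by edgeR, 0 at an unadjusted p under 0.05 and 0 with DESeq2, while limma voom called 1 of the kinases higher. In the kinase list the smallest p-values belonged to Camk4 (34.6 ± 21.8 and 17.8 ± 8.79 CPM) and Dapk1 (69.6 ± 27.5 and 49.4 ± 20.3 CPM), both overlapping.

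Further downstream, diacylglycerol kinases, which remove the lipid that activates PKC, had 6 of 8 estimates above 0 and a median of 0.55, with 0 called by edgeR or DESeq2, 4 higher at an unadjusted p under 0.05 and 2 with limma voom. Dgkz was at 74.5 ± 10.6 CPM in DMSO and 122 ± 35.1 CPM in SAG without overlap, and Dgkg at 79.0 ± 35.7 and 144 ± 47.2 CPM with overlap. Of 11 calcineurin and NFAT genes 0 were called by edgeR, DESeq2 or limma voom, and 1 was higher at an unadjusted p under 0.05. Ppp3ca, a catalytic subunit of the phosphatase calcineurin, was at 153 ± 17.5 and 203 ± 32.9 CPM, and Rcan3, a calcineurin regulator, at 20.8 ± 6.61 and 13.1 ± 2.39 CPM. Of 7 kinase targets and downstream genes 0 were called by edgeR, and 1 was higher and 1 lower by unadjusted p under 0.05, with DESeq2 and with limma voom. The smallest p-values were those of Marcksl1, a relative of the PKC substrate MARCKS, which was at 92.0 ± 19.7 and 158 ± 28.1 CPM (edgeR adjusted p = 0.073), and Mapk8, the stress kinase JNK1, which was at 25.7 ± 2.46 and 12.8 ± 3.01 CPM (adjusted p = 0.101). Both were without overlap between the groups.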

How the data were processed

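RNA-seq libraries were made from total RNA of sorted cells, 4 per treatment, with an RNeasy micro kit and a stranded SMARTer pico-input kit. The submitters' processing notes name kallisto, DESeq2 and GRCm38. The deposited values are whole-number counts per gene and library, and whether the authors rounded estimated counts is not given in the sources used here. Symbols, positions and lengths came from GENCODE M21, and promoters from RefSeq tables. Groups and replicate numbers were taken from the labels.

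Counts were tested with edgeR 4.0.16 (R 4.3.3, limma 3.58.1): genes were filtered with filterByExpr, leaving 15421, scaled by TMM and fitted with a robust quasi-likelihood model of treatment, and p-values were adjusted by Benjamini-Hochberg. The method was tested on simulated counts. Log2 CPM used a prior count of 2, and isoform ratios a count of 0.5 added to each gene and exact permutation. Alternatives were DESeq2 1.42.0, limma voom, other scaling and filters, a replicate block, marker scores as covariates and each library left out. The floor of 3 counts covers counting error only.

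Beyond the 10 genes, those named are, per pathway list, up to 6 called genes or else the 2 with the smallest p, the first 2 markers of the lists, the sort genes, and the 3 genes of at least 10 CPM most correlated with each of the 10. Not every gene so chosen is reported here. The genes, the lists and the isoform pairs were chosen with earlier results of these data known. The p-values of edgeR, DESeq2 and limma voom weigh the difference between groups against the spread between mice. Those of the exact permutation tests are shares of relabellings or of sign changes.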

Additional observations from a re-analysis of the deposited data

Results flagged for a closer look

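Values that stood apart from the other 3 libraries of their group by Dixon's test (95% level) were found in 5 of 46 groups of 4 tested, where chance gives about 2.3. In DMSO 4, Camk2a was at 9.60 CPM, with the next DMSO library at 3.31 CPM, and its share of CaMKII was 15.2%, next to 3.81%. In the same library Camk2b was at 3.00 CPM, and the nearest DMSO library at 16.2 CPM. In DMSO 1, Plcb2 was at 43.1 CPM, with the nearest DMSO library at 119.5 CPM. In SAG 2, Prkcb was at 223.7 CPM, with the nearest SAG library at 137.3 CPM. The cause of these values was not tested.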

How the results depend on the processing

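Of 180 fold changes of the 10 genes under 18 alternatives, 168 kept their direction and 12 did not. Camk2d, Camk2g, Plcb1, Plcb2 and Prkcb kept theirs in all 18. Reversals were Camk2a with limma voom (0.37), with the B-lineage score as covariate (1.54) and among the fits without 1 library (-0.53 to 0.50), Camk2b with the neutrophil score (0.77), Plcb3 and Plcb4 with the B-lineage score (-0.37 and -1.12), and Prkca with the replicate block (0.024), with the neutrophil score (1.92), with the chondrocyte score (0.58) and without 1 library (-0.38 to 0.094). Without 1 library, the change in family share ranged from -3.33 to 1.05 percentage points for Camk2a and from -0.289 to 2.85 for Plcb3. Genes of the 10 called lower numbered 1 with edgeR, 2 with DESeq2, 2 with limma voom, 0 with the neutrophil score, 0 with the chondrocyte score, 1 with the B-lineage score and 0 to 1 without 1 library, and those called higher 0 to 1 without 1 library. Over all genes, 404 were called higher and 41 lower with edgeR. DESeq2 gave 797 and 390, limma voom 995 and 398, the neutrophil score 0 and 11, the chondrocyte score 3 and 4, and leaving out 1 library 80 to 1017 and 4 to 343, with the highest of each without DMSO 4. A minimum of 10 counts in every library gave 87 lower, and the B-lineage score 120 lower. Without 1 library the difference in log2 ratio was -1.84 to -1.52 for Camk2d to Camk2g and -2.23 to -1.42 for Plcb1 to Plcb2, each with exact permutation p = 0.0571, the smallest then possible. Deviations of same-numbered DMSO and SAG libraries were only weakly correlated (0.01 to 0.12). The same-numbered SAG library was the best match for DMSO 1 and DMSO 3 but not for DMSO 2 and DMSO 4. Such correlations cannot settle whether the numbers pair the mice. The replicate block gave 0 of the 10 genes lower, 18 genes lower in all and a Camk2d adjusted p of 0.1, and the paired ratios of -1.69 and -1.97 had p = 0.125 by exact permutation of signs, the smallest 4 pairs allow. Causes of these changes were not tested. With 4 mice per group and standard errors of 0.76 and 0.60 on the log2 scale, the differences estimated for Camk2a and Camk2b were not detectable.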

Other observations

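The genes whose log2 CPM followed each of the 10 most closely over the 8 libraries were sought among 9311 genes of at least 10 CPM (9312 for Camk2a). These Pearson correlations are descriptions, since the 8 libraries fall into the treatment groups and share depth and cell content. Camk2d was closest to Tmed9 (0.983), Fam208b (0.977) and Tspan13 (0.974), and Plcb1 to Eml1 (0.986), Bhlhe41 (0.984), a transcriptional repressor, and Kank1 (0.983). Camk2g was closest to Arl11 (0.987), Rnf125 (0.981) and Ip6k1 (0.981). The list for Plcb2 held Brpf1 (0.984), Spn (0.981), which encodes the leukocyte surface protein CD43, and Cdca2 (0.978), and that for Prkcb held Vav1 (0.976), a signalling protein of blood cells, Tmem170b (0.975) and Nrd1 (0.971). Plcb3 was nearest to Tom1 (0.99), Ppp1r10 (0.979) and Papola (0.972). For Prkca the nearest genes were Gtf3c3 (0.988), Zfp64 (0.978) and Abhd2 (0.975). Plcb4 followed Elac2 (0.959) and Mtmr9 (0.946), Camk2b followed Chmp2b (0.973), Rbak (0.969) and Vwa8 (0.962), and Camk2a followed Sap18b (0.962), Gabarapl2 (0.938) and Alkbh8 (0.934).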
